A study of Mus musculus with 653 samples.

Results

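The 9 genes described here, *Crabp1*, *Crabp2*, *Aldh1a1*, *Aldh1a2*, *Rara*, *Rarb*, *Cyp26a1*, *Cyp26b1* and *Stra6*, are genes of the vitamin A (retinoid) pathway among the 54195 genes of the count table. They were selected on earlier results of these cells, in which reads of *Crabp1* led the cells set apart as mesenchyme by marker reads, so their levels across lineages are given as a description and support nothing. Single cells from mouse embryonic livers were sequenced with the Smart-seq2 protocol, in which the cDNA of each sorted cell becomes a library of its own, without molecular identifiers. The cells fall into 4 groups. At E10.5 the bulk sort gave 31.1% of all cells and the Lgr5-GFP+ sort 32.3%, and at E13.5 they gave 24.3% and 12.3% (80 cells). All embryos came from Lgr5-EGFP-IRES-creERT2 males on a C57BL/6 background crossed with MF1 females. This allele drives GFP from the locus of *Lgr5*, a receptor of the Wnt pathway, and the labels do not say whether the bulk cells came from embryos that carried it. No drug was given to the embryos of this experiment per the labels, and the labels name no animal or litter. Both sorts used Liv2, an antibody to a surface antigen of hepatoblasts (the progenitors of hepatocytes and bile duct cells), and left out cells with CD31 or CD45, which mark endothelium and blood cells. The Lgr5-GFP+ sort also required GFP.

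Retinol circulates bound to RBP4 and transthyretin and enters cells through STRA6. Retinol dehydrogenases oxidise it to retinal, and the ALDH1A enzymes oxidise retinal to retinoic acid, which the CRABP proteins carry within the cell, which binds the RAR nuclear receptors and which the CYP26 enzymes break down. In the liver, hepatocytes secrete RBP4 and stellate cells store retinoids, and in the embryo the mesothelium and the septum transversum around the liver bud are known to make retinoic acid.

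Retinoic acid receptors, as heterodimers with RXR, bind direct repeats of a hexamer. The RefSeq promoter windows (250 bases before to 50 bases after each start, GRCm38.p6) held 15 windows for 8 of the 9 genes, with *Crabp2* not among them. They were searched on both strands for 2 hexamers with the letters AGGTCA or AGTTCA or GGTTCA or GGGTCA, in the same direction and spaced by 1, 2 or 5 bases. A repeat spaced by 5 bases was found in windows of *Rarb* and *Cyp26a1*, and in 32 of all 32851 windows (0.0974%). No member window held a repeat spaced by 1 or by 2 bases, which occurred in 0.222% and 0.268% of all windows. Both matches are printed 5′ to 3′ on the strand of the gene, with the hexamers in capitals, because they are the only ones among these genes. The *Rarb* match lies at chr14:16575507-16575535, the gene being on the minus strand, with the repeat 53 to 37 bases before a start inside the annotated gene. The *Cyp26a1* match lies at chr19:37697770-37697798, the gene being on the plus strand, with the repeat 32 to 16 bases before the start and read on the opposite strand.
Rarb: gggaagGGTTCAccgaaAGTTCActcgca
Cyp26a1: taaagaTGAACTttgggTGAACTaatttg
A match to these letters is not evidence that a receptor binds there.

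Cells were put into lineage classes by which of 4 marker genes had more than 10 reads. *Afp*, the fetal serum protein of hepatoblasts, was the sole marker in 61 cells, *Klf1*, an erythroid transcription factor, in 160, *Pdgfra*, a growth factor receptor of mesenchyme, in 17.3% of all cells, and *Wt1*, a transcription factor of mesothelium and septum transversum, in 24. *Pdgfra* and *Wt1* occurred together in 37 cells, other pairs and triples in 10 cells, and 248 cells had no marker above 10 reads. The threshold separated *Afp* and *Klf1* cells with few cells near it, since 0 and 2 cells had 11 to 20 reads of these genes, whereas 10 cells had 11 to 20 reads of *Pdgfra* and 2 of *Wt1*. The cells with 1 to 10 reads made up 25.7% of all cells for *Afp*, 31.9% for *Klf1*, 20.7% for *Pdgfra* and 17.8% for *Wt1*. The *Pdgfra* cells held at least 2 of 7 mesenchyme markers above 10 reads in 98.2% of the cells, with a summed level of 4326 reads per 1000000 reads (RPM). *Pdgfra* is itself 1 of the 7, so every cell of the class passed 1 of them by definition. In these cells 6 hepatoblast markers summed to 9.02 RPM and 6 erythroid markers to 100.4 RPM. At least 2 erythroid markers passed 10 reads in 24.8% of them, and in 25% of *Wt1* cells and 27.03% of cells with both markers. Mesenchyme markers were also the highest list in *Wt1* cells (7323 RPM). Of these, 18 of 24 cells had at least 2 of 7 markers of mesothelium and septum transversum, a list that includes *Wt1* itself. At least 2 megakaryocyte markers were found in 2 cells. Although the labels call all of these cells liver hepatoblast cells, 66 cells had more than 10 *Afp* reads. Cells held 463347 to 2279700 reads, with group medians from 1092637 to 1260402. Levels in RPM are sums over cells, with a gene's reads in a class divided by all reads of that class. Since the labels name no animal or litter, each group is 1 sample, and no p-value is given. Intervals are exact 95% intervals for counting error only, and ranges over the 5 library pools show the spread between pools, since the labels do not say what sets the pools apart.

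*Crabp1* and *Crabp2*, the cellular carriers of retinoic acid, were the most abundant of the 9 genes in *Pdgfra* cells. Per kb of exon, the *Pdgfra* cells held 1064 RPM of *Crabp1* and 636.1 RPM of *Crabp2*, against 16.4 RPM of *Aldh1a2*, 15.6 RPM of *Rara*, 10.2 RPM of *Stra6*, 5.66 RPM of *Rarb*, 1.14 RPM of *Cyp26a1*, 0.510 RPM of *Cyp26b1* and 0.0248 RPM of *Aldh1a1*. *Pdgfra* itself was at 31.4 RPM per kb in these cells. *Crabp1* ranged from 0 to 4720 RPM in single *Pdgfra* cells, with a median of 311.8 RPM. Its summed level was 853.4 RPM (848.5 to 858.3), and the pools lay between 765.1 and 1045 RPM. More than 10 *Crabp1* reads were found in 70 *Pdgfra* cells (61.95%, 52.3 to 70.9%), and the pools ran from 28.6% to 77.8%. The level varied little between pools, while the share of cells with the gene was lowest in pool 2, where 6 of 21 cells carried it.

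Outside the *Pdgfra* cells, *Crabp1* was at 616.5 RPM in cells with *Pdgfra* and *Wt1*, 273.2 RPM in *Wt1* cells, 327.9 RPM in cells without a marker, 7.48 RPM in *Afp* cells and 0.686 RPM in *Klf1* cells. In *Klf1* cells 0 of 160 cells passed 10 reads, which allows a share of up to 1.88%, although 37.5% had at least 1 read and the highest cell had 5. Low read numbers of *Crabp1* were therefore common in cells of all classes, and a single read is not taken as expression here. In *Afp* cells 2 of 61 passed 10 reads, and 75.4% of the *Crabp1* reads of that class lay in 1 cell. The log2 ratio of the *Pdgfra* cells to the next class with a sole marker, the *Wt1* cells, was 1.64. This placed *Crabp1* at rank 675 of 12771 genes measured (at 5 RPM or more in a class), so many genes marked the *Pdgfra* cells more strongly.

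*Crabp2* followed a similar order with more reads in other lineages. Single *Pdgfra* cells ranged from 0 to 6039 RPM, with a median of 382.2 RPM, and 80 cells (70.8%, 61.5 to 78.97%) passed 10 reads. The summed level was 840.9 RPM in *Pdgfra* cells, 455.7 RPM in cells with *Pdgfra* and *Wt1*, 111.7 RPM in *Wt1* cells, 100.9 RPM in *Afp* cells and 14.7 RPM in *Klf1* cells. Among *Afp* cells 16 of 61 (26.2%, 15.8 to 39.1%) passed 10 reads, against 2 of 61 for *Crabp1*. The *Klf1* value rested on 1 E10.5 bulk cell with 2008 reads, without which it was 3.48 RPM. *Crabp2* stood at 2.91 on the log2 scale above the *Wt1* cells, rank 355. Of the 7 members measured in this comparison, *Crabp1* and *Crabp2* were more than 2-fold higher in *Pdgfra* cells than in every other class with a sole marker, and over all genes 8.66% were. For *Crabp1* this rested on how the classes were drawn, since its log2 ratio was 0.72 with overlapping classes, 0.76 without pools 3 to 5 and -1.03 when more than 0 marker reads made a class. The median log2 ratio was 0.50 for the 7 members and -0.66 for all genes measured. Because the members were selected on earlier results of these cells, neither these medians nor the 2-fold count is support for an excess.

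**Figure D1:**
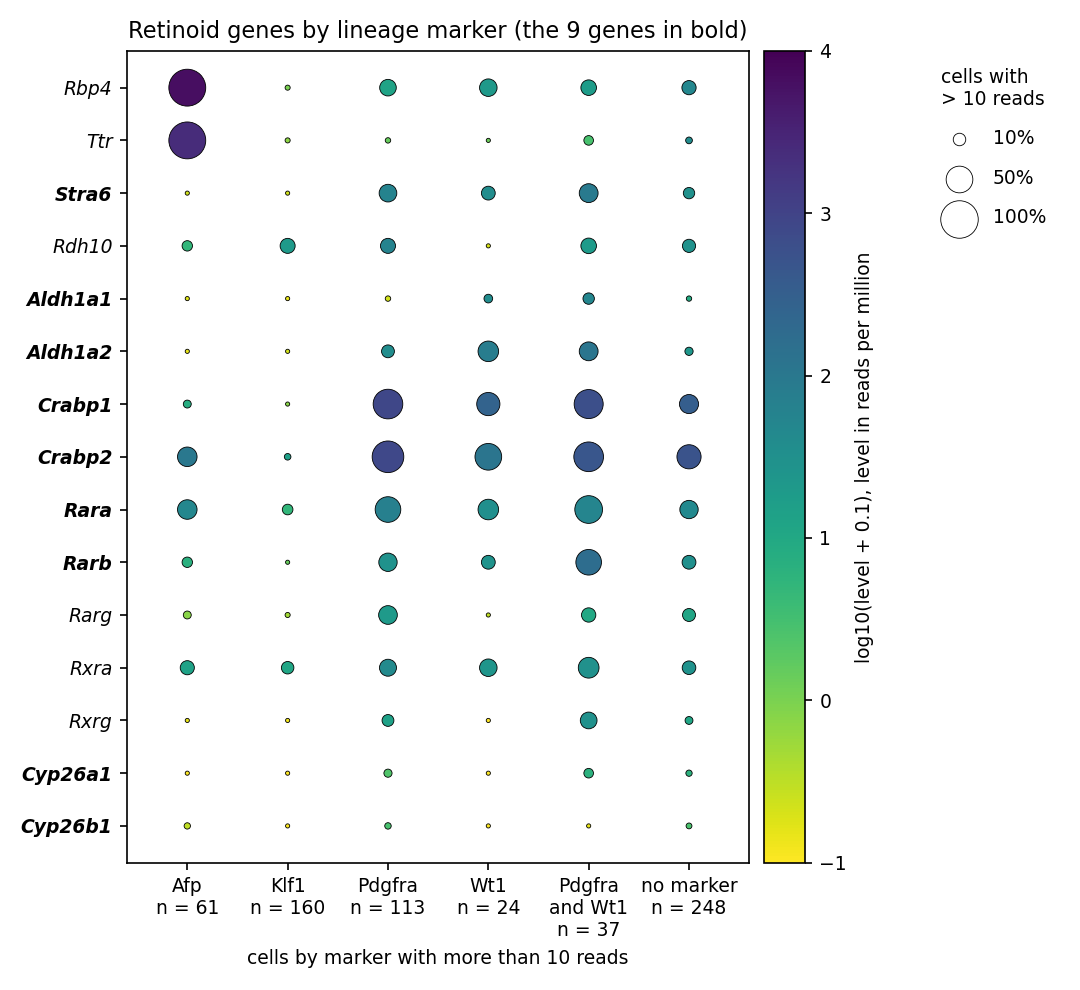
Rows are the 9 retinoid genes (bold) and 6 further genes of the pathway, and columns are cell classes by the marker with more than 10 reads. Colour is log10(level + 0.1), with the level in RPM, and dot area is the percentage of cells with more than 10 reads of the gene. *Crabp1* and *Crabp2* are darkest in cells with *Pdgfra*, while *Rbp4* and *Ttr* are darkest in *Afp* cells.

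*Stra6*, the membrane receptor through which cells take up retinol, was near 0 in *Afp* and *Klf1* cells and present in a minority of mesenchymal cells. Single *Pdgfra* cells ranged from 0 to 755.2 RPM, with a median of 0. The summed level was 59.2 RPM in *Pdgfra* cells, 37.1 RPM in *Wt1* cells and 89.4 RPM in cells with both markers, against 0.132 RPM in *Afp* cells and 0.134 RPM in *Klf1* cells. More than 10 reads were found in 24 *Pdgfra* cells (21.2%, 14.1 to 29.9%) and in 9 of 37 cells with both markers (24.3%, 11.8 to 41.2%). None of 61 *Afp* cells passed, where 0 of 61 cells allows a share of up to 4.92%. The level in cells with both markers was 45.6 RPM without its highest cell, so the order of these classes rested on 1 cell.

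Of the enzymes that make retinoic acid, *Aldh1a2* was found in mesenchymal cells and was highest in cells with *Wt1*. Single cells ranged from 0 to 1174 RPM in the *Pdgfra* class, 0 to 718.7 RPM in the *Wt1* class and 0 to 1134 RPM in cells with both markers, with a median of 0 in all 3 classes. Per kb of exon, summed levels were 16.4, 35.2 and 50.4 RPM in the same order, and 0.0234 RPM in *Afp* cells and 0.0566 RPM in *Klf1* cells. The cells above 10 reads numbered 12 *Pdgfra* cells (10.6%, 5.61 to 17.8%), 7 of 24 *Wt1* cells (29.2%, 12.6 to 51.1%) and 9 of 37 cells with both (24.3%, 11.8 to 41.2%). Of all 63 cells with more than 10 *Wt1* reads, whatever else they carried, 26.98% passed 10 *Aldh1a2* reads. *Aldh1a1*, a second enzyme of this step, passed 10 reads in 7 cells in all, all of them from E10.5. Its level of 38.1 RPM in *Wt1* cells came from 1 cell with 1138 reads, and its 51.1 RPM in cells with both markers was 11.6 RPM without the highest cell.

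The receptor genes were less restricted. *Rara*, which encodes the alpha receptor, was at 67.99 RPM in *Pdgfra* cells (0 to 1256 RPM in single cells, median 2.15 RPM), 48.1 RPM in *Afp* cells, 54.01 RPM in cells with *Pdgfra* and *Wt1*, 33.5 RPM in *Wt1* cells and 4.96 RPM in *Klf1* cells. It passed 10 reads in 52 *Pdgfra* cells (46.02%, 36.6 to 55.6%), 16 of 61 *Afp* cells (26.2%, 15.8 to 39.1%) and 11 of 160 *Klf1* cells (6.88%, 3.48 to 11.97%). The *Rara* levels of the classes overlapped over pools, with 36.5 to 92.1 RPM in *Pdgfra* cells and 0.176 to 66.4 RPM in *Afp* cells. *Rarb*, the beta receptor gene, was at 29.8 RPM in *Pdgfra* cells (0 to 518.4 RPM in single cells, median 1.70 RPM), 26.9 RPM in *Wt1* cells, 6.46 RPM in *Afp* cells and 1.32 RPM in *Klf1* cells. Its 171.6 RPM in cells with *Pdgfra* and *Wt1* became 90.3 RPM without 1 E13.5 bulk cell of 3805 reads, and 17 of these 37 cells (45.9%, 29.5 to 63.1%) passed 10 reads. At least 1 *Rarb* read was found in 72.5% of *Klf1* cells and 90.2% of *Afp* cells, although 0 of 160 *Klf1* cells passed 10 reads. Exons of *Rarb* overlap those of *Top2b* and *Gm48162* on the opposite strand, and the libraries do not keep the strand, so low *Rarb* counts cannot be told apart from reads of these neighbours.

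The genes of retinoic acid breakdown were rare. *Cyp26a1* passed 10 reads in 10 cells and *Cyp26b1* in 6 cells, all from E10.5. *Cyp26a1* was at 2.27 RPM in *Pdgfra* cells and 6.33 RPM in cells with *Pdgfra* and *Wt1*, of which 1.51 RPM remained without the highest cell. No *Cyp26a1* read was found in *Afp*, *Klf1* or *Wt1* cells. *Cyp26b1* did not reach 5 RPM in any class with a marker, and its 2.73 RPM in *Pdgfra* cells was 0.420 RPM without the highest cell. At this number of cells, differences of either gene between mesenchymal classes were not detectable.

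**Figure D2:**
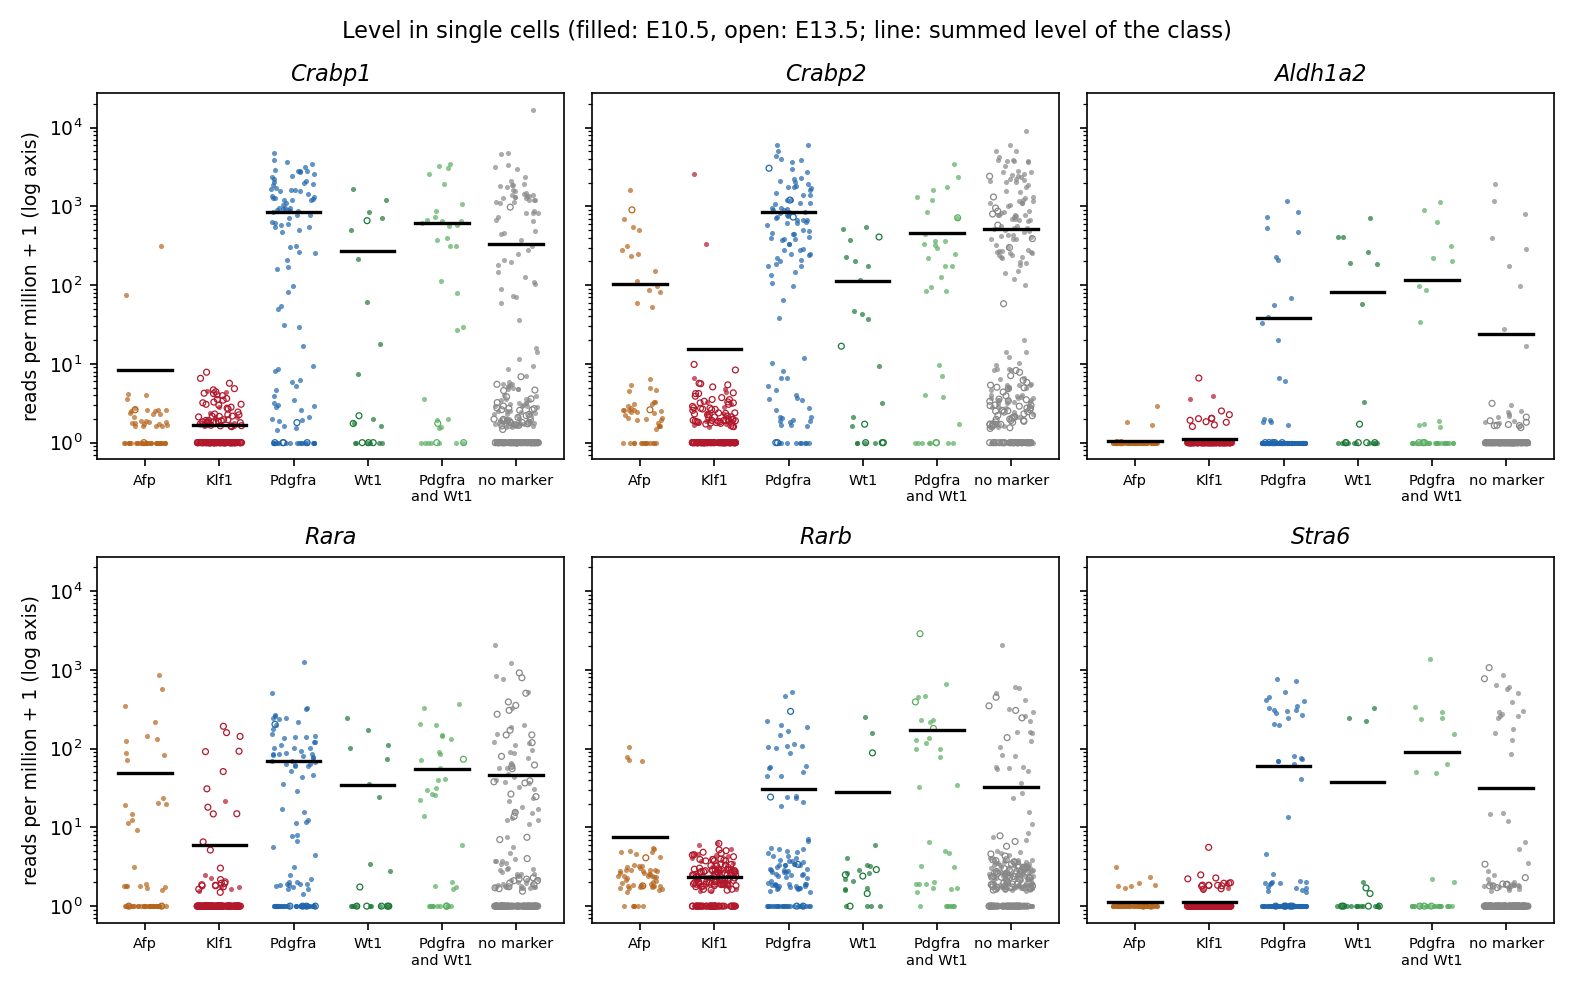
Each point is a cell, spread sideways at random, with RPM + 1 on a log axis, filled for E10.5 and open for E13.5, and the line marks the summed level of the class + 1. *Crabp1* and *Crabp2* separate into cells above about 10 and cells near 1, while *Aldh1a2* and *Stra6* lie at 1 in most cells of all classes.

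Cells without a lineage marker numbered 248 (37.98%) and held 36.7% of the cells with more than 10 *Crabp1* reads, 62 cells, and 41.9% of those with more than 10 *Crabp2* reads. Of these 62 cells, 50 (80.6%, 68.6 to 89.6%) had more than 10 reads of *Pdgfrb*, *Col1a1*, *Col1a2* or *Col3a1*, which are receptor and collagen genes of mesenchyme. Among the cells of this class without *Crabp1* the number was 85 (45.7%, 38.4 to 53.2%). The cell with the most *Crabp1* reads of the series was of this class, an E10.5 bulk cell of pool 2 with 19086 reads (16652 RPM), and it held 6916 reads of *Crabp2*, 2223 of *Vim*, 1237 of *Col1a2* and 0 of *Pdgfra*. Without it the class was at 265.7 RPM. A class by marker reads therefore left part of the *Crabp1* cells outside the classes with *Pdgfra* or *Wt1*.

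Library pools differed more for some members than for others. The E10.5 cells of pools 1 and 2 had a median of 4573 detected genes at 1228386 reads, and those of pools 3 to 5 had 6803 genes at 1266186 reads. In these E10.5 cells, *Rara* passed 10 reads in 13.1% (8.52 to 19.1%) of the cells of pools 1 and 2 and in 45.6% (39.2 to 52.2%) of the cells of pools 3 to 5. For *Aldh1a2* the shares were 1.71% (0.355 to 4.93%) and 14.6% (10.4 to 19.8%), and for *Rarb* 8.57% and 23.4%. *Crabp1*, at 37.7% (30.5 to 45.3%) and 42.3% (35.9 to 48.8%), and *Crabp2*, at 49.1% and 57.7%, differed less. Among the 160 E10.5 cells with *Pdgfra*, *Wt1* or both, *Aldh1a2* passed in 8 of 32, 10 of 41 and 10 of 34 cells of pools 3, 4 and 5, against 0 of 53 cells of pools 1 and 2, which allows a share of up to 5.66%. The number of detected genes moved with these shares, and its part in them was not tested. Every statement on *Aldh1a2* positive cells in mesenchyme therefore rests on pools 3 to 5.

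**Figure D3:**
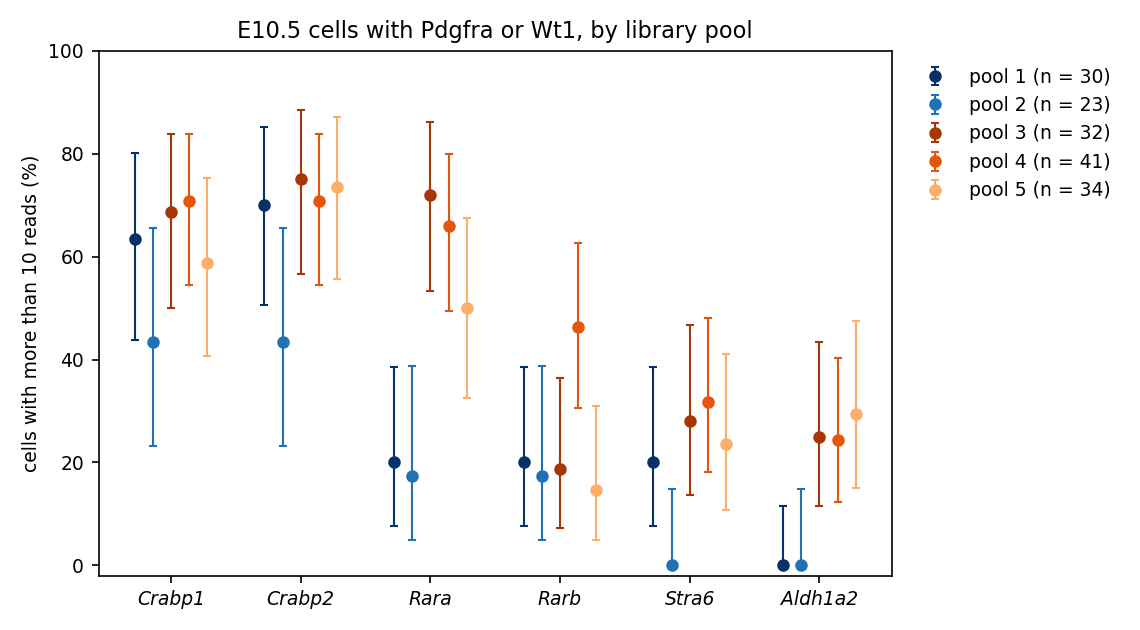
Points are the percentage of E10.5 cells with *Pdgfra* or *Wt1* that have more than 10 reads of the gene, by library pool, and bars are exact 95% intervals for counting error. The *Rara* and *Aldh1a2* points of pools 1 and 2 lie below those of pools 3 to 5, while *Crabp1* and *Crabp2* overlap in all pools.

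The Liv2+ sort held different lineages at the 2 stages, with 78.6% of the E13.5 bulk cells in the *Klf1* class, so a group level joins the number of cells with a gene and the reads per cell, and these cannot be told apart in it. Over all cells, *Crabp1* was at 563.8 RPM in E10.5 bulk, 429.1 RPM in E10.5 Lgr5-GFP+, 0.762 RPM in E13.5 bulk and 30.5 RPM in E13.5 Lgr5-GFP+ cells. It passed 10 reads in 40.4% (33.6 to 47.5%), 40.3% (33.6 to 47.2%), 0% (which allows up to 1.89%) and 2.50% of the cells. *Crabp2* was at 514.3, 640.1 and 8.16 RPM in the first 3 of these groups and between 136.6 and 141.4 RPM (95% interval) in E13.5 Lgr5-GFP+ cells. It passed 10 reads in 45.3%, 62.6%, 1.89% and 17.5% of the cells, in the same order. Of the 17 E13.5 cells with *Crabp2*, 1 also passed for *Crabp1*. *Aldh1a2* was at 55.6 and 23.3 RPM in E10.5 bulk and Lgr5-GFP+ cells and at 0.102 and 0.107 RPM at E13.5, where 0 of 239 cells passed 10 reads. *Stra6* was at 56.2, 26.5, 0.124 and 21.3 RPM, and the last value came from 2 cells that passed.

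*Rara* and *Rarb* did not follow this order of the stages. *Rara* was at 53.9 RPM in E10.5 bulk, 43.6 RPM in E10.5 Lgr5-GFP+ and 54.3 RPM in E13.5 Lgr5-GFP+ cells, and at 7.25 RPM in E13.5 bulk cells. At E13.5 it was higher in Lgr5-GFP+ than in bulk cells in 5 of 5 pools. Within E13.5 cells without a marker it was at 66.6 RPM in 61 Lgr5-GFP+ cells and 12.9 RPM in 32 bulk cells, with 18 and 4 cells above 10 reads. *Rarb* lay between 23.6 and 36.2 RPM in all 4 groups, although 13.8%, 20.4%, 1.89% and 10% of the cells passed 10 reads. In E13.5 bulk cells, 3805 of its 4756 reads were those of the 1 cell named above.

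**Figure D4:**
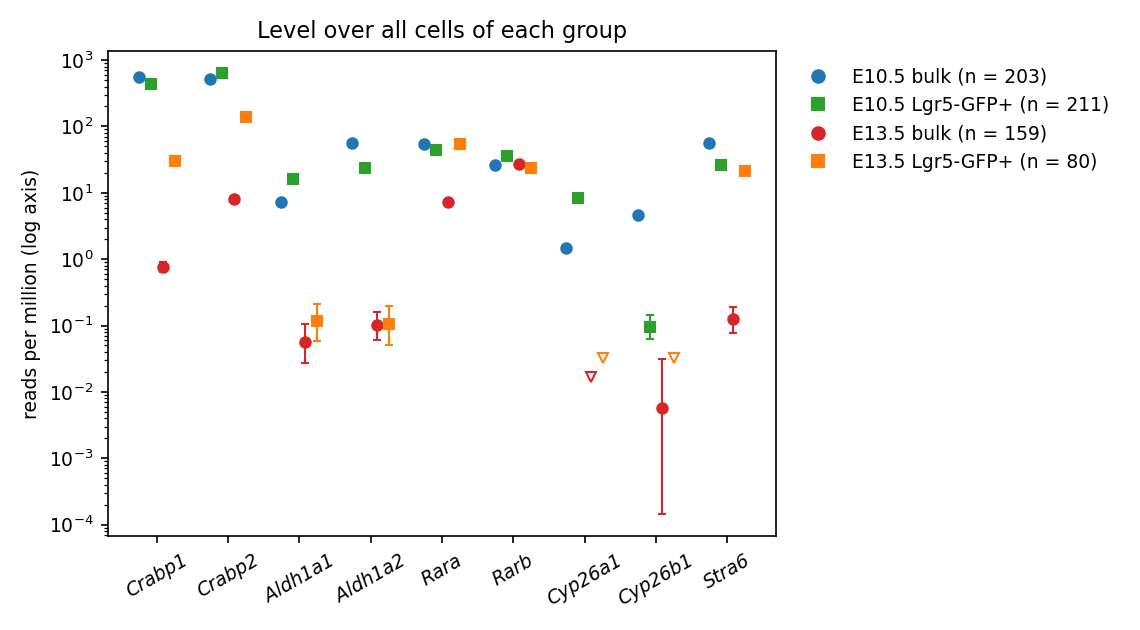
Points are levels of the 9 genes in RPM on a log axis, summed over all cells of each group, bars are exact 95% Poisson intervals, and open triangles mark the limit of 3 counts where a group had 0 reads. *Rara* and *Rarb* stay above 1 in all groups, while *Aldh1a1*, *Aldh1a2* and both *Cyp26* genes are below 1 at E13.5.

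Within *Pdgfra* cells the stages could be compared only over 5 E13.5 cells, all Lgr5-GFP+ and 3 of them from pool 2, against the E10.5 cells of both sorts. *Crabp2* was at 826.5 RPM at E13.5 and 841.5 RPM at E10.5, with 729.6, 1200 and 3047 RPM in the 3 E13.5 cells of pool 2 and 0 RPM in the other two. *Crabp1* had 1 read in the 5 cells, 0.202 RPM (0.00510 to 1.12), against 885.0 RPM at E10.5. The 3 cells high for *Crabp2* thus had at most 0.796 RPM of *Crabp1*. Among the 9 other E13.5 cells with *Wt1*, alone or with *Pdgfra*, 1 held both genes, at 656.6 RPM of *Crabp1* and 407.3 RPM of *Crabp2*. *Rara* was at 37.5 and 69.1 RPM and *Rarb* at 61.3 and 28.7 RPM at E13.5 and E10.5. *Aldh1a2* and *Stra6* had 0 reads in the 5 cells, which, set to 3 counts over them, gives log2 ratios no higher than -5.99 and -6.67. Of 6 members measured, 3 were more than 2-fold lower at E13.5 and *Rarb* was higher, whereas 80.7% of all genes differed by 2-fold in either direction and 64.2% were lower. The median log2 ratio was -3.44 for the members and -3.20 for all genes, so the member count is close to the background of a class with 5 cells.

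Within E10.5 *Pdgfra* cells, the Lgr5-GFP+ sort (55 cells) was compared with the bulk sort (53 cells). *Crabp1* was at 846.3 RPM in Lgr5-GFP+ and 929.3 RPM in bulk cells, a log2 ratio of -0.14, and pools gave both signs (-0.70 to 1.08). The cell median was nevertheless 855.9 RPM in Lgr5-GFP+ and 161.4 RPM in bulk cells, and 72.7% and 56.6% of the cells passed 10 reads. *Crabp2* was at 958.6 and 707.6 RPM (log2 ratio 0.44, pools -1.21 to 2.42), in 83.6% and 58.5% of the cells. *Aldh1a2* was at 4.87 RPM in Lgr5-GFP+ and 76.7 RPM in bulk cells (log2 ratio -3.98) and lower in the 3 of 3 pools with reads, although the cells above 10 reads were 9.09% and 13.2%. In Lgr5-GFP+ and bulk, these were 1 of 11 and 2 of 9 cells in pool 3 and 1 of 17 and 2 of 9 in pool 4. In pool 5 they were 3 of 8 and 3 of 12. A single bulk cell of pool 4 held 2011 of the 4794 bulk reads. The *Aldh1a2* ratio was -2.68 without pool 4, -5.72 without pool 5 and -0.80 with overlapping classes, which is under 2-fold. *Stra6* was at 40.5 and 85.4 RPM (log2 ratio -1.08), lower in 3 of 4 pools and higher in pool 1 (1.68). The *Stra6* ratio was under 2-fold without pool 3 (-0.47), pool 4 (-0.52) or pool 5 (-0.93), and -2.74 without pool 1. *Cyp26b1* was at 0.112 and 5.94 RPM, of which the bulk value rested on 2 cells above 10 reads. Thus 3 of 7 members measured were more than 2-fold lower in Lgr5-GFP+ cells, and over all genes 35.4% differed by 2-fold in either direction. The count of members was 1 without pool 5 and 2 without pool 3 or pool 4. The medians of the members and of all genes were -0.14 and 0.03.

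*Lgr5* reads gave a further split of the 160 E10.5 cells with *Pdgfra* or *Wt1*. *Crabp2* passed 10 reads in 20 of 20 cells with more than 10 *Lgr5* reads (100%, 83.2 to 100%) and in 89 of 140 without (63.6%, 55.02 to 71.5%). *Crabp1* passed in 17 of 20 (85%, 62.1 to 96.8%) and 83 of 140 (59.3%, 50.7 to 67.5%). All but 1 of the 20 cells came from pools 3 to 5, where the shares were 100% against 67.05% for *Crabp2* and 89.5% against 61.4% for *Crabp1*. *Aldh1a2* passed in 2 of the 20 and 26 of the 140 cells.

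The cells with *Wt1*, alone or with *Pdgfra*, were compared with *Pdgfra* cells at E10.5. *Aldh1a2* was at 119.6 RPM in the cells with *Wt1* and 38.4 RPM in the *Pdgfra* cells, a log2 ratio of 1.64, and the 3 pools with reads gave 3.28, 1.07 and 0.52. It passed 10 reads in 16 of 52 cells (30.8%, 18.7 to 45.1%) and 12 *Pdgfra* cells (11.1%, 5.88 to 18.6%), and within pools 3 to 5 in 39.02% (24.2 to 55.5%) of 41 and 18.2% (9.76 to 29.6%) of 66, with intervals that overlap. Split by 4 further markers of mesothelium and septum transversum within pools 3 to 5, *Aldh1a2* passed in 9 of 22 cells with *Upk3b*, a uroplakin of mesothelium (40.9%, 20.7 to 63.7%), against 22.4% (14.03 to 32.7%) without it. The shares were 53.8% (25.1 to 80.8%) with and 22.3% (14.4 to 32.1%) without *Tbx18*, 32.4% and 23.3% for *Gata4*, and 20% and 27.2% for *Lhx2*. The intervals overlapped for each of these 4 markers. *Aldh1a1* (54.7 and 0.127 RPM) and *Rarb* (64.4 and 28.7 RPM) were also more than 2-fold higher in the cells with *Wt1*, and *Crabp2* (350.4 and 841.5 RPM) was lower. *Aldh1a1* passed 10 reads in 4 of the 52 cells, and 1 cell held 1805 of its 3453 reads there. It was higher with *Wt1* in 3 of 4 pools, with a log2 ratio of -1.74 in pool 5. *Rarb* was higher in 4 of 5 pools, with -1.86 in pool 2. Of 7 members measured, 3 were more than 2-fold higher with *Wt1*, and over all genes 14.6% were. *Crabp1*, at 548.8 and 885.0 RPM, was less than 2-fold apart.

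*Crabp1* and *Crabp2* were found together in 78 of these 160 E10.5 cells, *Crabp1* alone in 22, *Crabp2* alone in 31 and neither in 29. *Crabp2* passed 10 reads in 78% (68.6 to 85.7%) of the 100 *Crabp1* cells and in 51.7% (38.4 to 64.8%) of the 60 others. Pearson's r of log2(RPM + 1) between the 2 genes was 0.35 over these 160 cells and 0.56 over all cells, which share pools and depth. Of the 28 *Aldh1a2* cells, 23 (82.1%) had *Crabp2*, 15 (53.6%) had *Crabp1* and 12 (42.9%, 24.5 to 62.8%) had *Stra6*. Among the cells without *Aldh1a2*, these shares were 65.2%, 64.4% and 18.2% (12.01 to 25.8%). All 28 *Aldh1a2* cells came from pools 3 to 5, whereas the cells without it include the 53 cells of pools 1 and 2. *Crabp2*, *Crabp1* and *Stra6* passed in 58.5%, 54.7% and 11.3% of those 53 cells. In all cells of pools 3 to 5 they passed in 72.9%, 66.4% and 28.04%, so these differences cannot be told apart from the pools. Between the cells with and without *Aldh1a2* over all pools, the intervals of the *Stra6* shares overlap slightly, and those of the *Crabp1* shares widely. The 6 cells with *Cyp26a1* all passed 10 reads of *Rara*, which 77 of the 160 cells (48.1%) also did. In pools 3 to 5, which held 5 of the 6, *Rara* passed in 62.6% of the cells, so no link is drawn from 6 cells. At least 4 of the 9 genes passed together in 22 *Pdgfra* cells and in 0 of 160 *Klf1* cells, of which 91.25% had none.

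**Figure D5:**
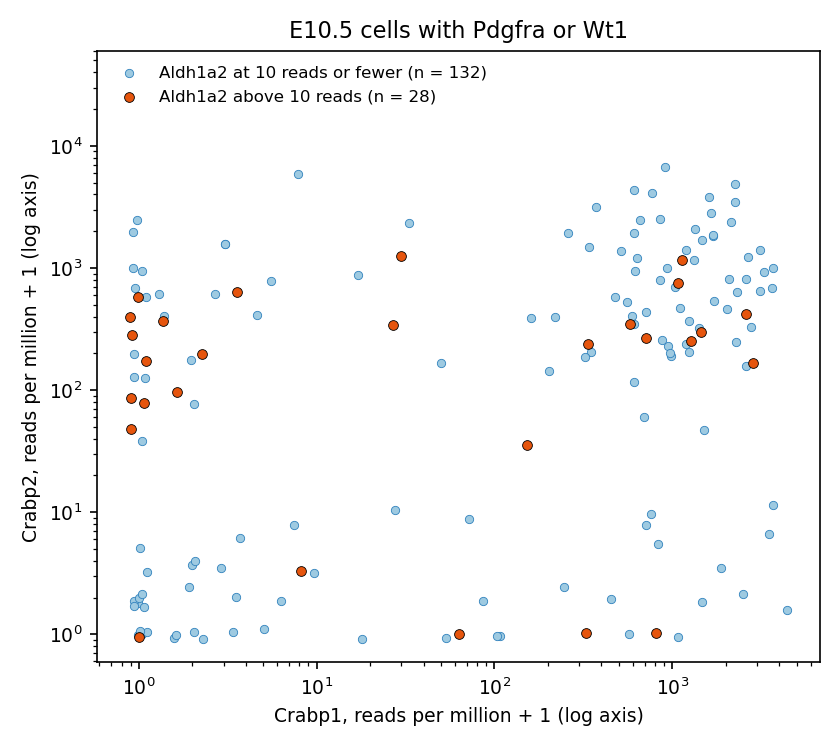
Each point is 1 of 160 E10.5 cells with *Pdgfra* or *Wt1*, with *Crabp1* across and *Crabp2* up, both in RPM + 1 on log axes and moved slightly at random, and the 28 cells with more than 10 *Aldh1a2* reads are orange. The orange cells lie both where *Crabp1* is high and where it is near 1, and 23 of them passed 10 reads of *Crabp2*.

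The other genes of the pathway were taken from a list of 61. Of these 43 were measured, 11 were under 5 RPM in all classes with a marker, 6 were listed at 0 and 1 was not matched. Of the 11, *Cd36* was at 44.03 RPM in cells without a marker. Among the classes with a marker, 9 of the 43 measured genes were highest in *Afp* cells, 4 in *Klf1* cells and 6 in *Pdgfra* cells. A further 7 were highest in *Wt1* cells and 17 in cells with *Pdgfra* and *Wt1*. Of the 9 members 8 were measured. Among the classes with a marker all 8 were highest in cells with *Pdgfra*, 3 of them without *Wt1* (*Crabp1*, *Crabp2* and *Rara*) and 5 with it. The same class was highest in 1 pool for *Aldh1a1* and *Cyp26a1* and in at most 4 pools for any member. *Cyp26a1* was at 6.34 RPM in cells without a marker and 6.33 RPM in cells with *Pdgfra* and *Wt1*. The lead of the 8 members over the next class ran from a log2 ratio of 0.33 (*Rara*) to 2.52 (*Rarb*). The share of all genes that were highest in these classes was not computed, so the count of 8 has no background to be read against. The median log2 ratio of *Pdgfra* to *Afp* cells was 4.45 for the members and 0.71 for the 43 other genes. The members were selected on earlier results of these cells, so this contrast is a description and supports nothing.

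The serum carriers of retinol lay on the hepatoblast side. *Rbp4* was at 6535 RPM in *Afp* cells and 12.3 RPM in *Pdgfra* cells, and *Ttr*, which encodes transthyretin, at 2407 and 1.38 RPM. *Fabp5*, a fatty acid binding protein that can also carry retinoic acid, was at 1099 RPM in *Afp* cells and 205.3 RPM in *Pdgfra* cells. *Rdh10*, which oxidises retinol to retinal in embryos, was at 56.9 RPM in *Pdgfra* cells, 20.01 RPM in *Klf1* cells and 18.6 RPM in cells with *Pdgfra* and *Wt1*. It was at 5.12 RPM in *Afp* cells, 0.1003 RPM in *Wt1* cells and 29.85 RPM in cells without a marker. Although its level was highest in the *Pdgfra* class, it passed 10 reads in 15.04% of those cells. The share was 16.2% in cells with *Pdgfra* and *Wt1* and 15% in *Klf1* cells.

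Of the receptors and cofactors 11 were measured, 4 of them highest in cells with *Pdgfra* and *Wt1*, 3 in *Wt1* cells, 2 in *Pdgfra* cells and 2 in *Klf1* cells. *Rarg*, the gamma receptor gene, was at 19.8 RPM in *Pdgfra* cells against 0.689 RPM in *Afp* cells, and was highest in *Pdgfra* cells in 5 of 5 pools. *Rxrg* was at 13.47 RPM in *Pdgfra* cells and 31.2 RPM in cells with both markers, and at 0.0530 RPM in *Afp* cells. Of 13 measured genes known to respond to retinoic acid, 8 were highest in cells with *Pdgfra* and *Wt1*, 2 in *Pdgfra* cells, 1 in *Wt1* cells and 2 in *Afp* cells. The share of all genes that were highest in cells with *Pdgfra* and *Wt1* was not computed. The 2 highest in *Afp* cells were *Tgm2* (11.2 RPM, and 0 RPM in *Pdgfra* cells) and *Cdx1* (7.08 and 0.324 RPM). *Nr2f1*, an orphan nuclear receptor gene, was at 86.98, 156.1 and 176.9 RPM in *Pdgfra*, *Wt1* and double cells and at 0.0794 RPM in *Afp* cells. *Tbx5*, a T-box factor, was at 85.7 RPM in *Pdgfra* and 2.81 RPM in *Wt1* cells.

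The genes whose values over cells were most like those of each member were ranked by Pearson's r of log2(RPM + 1), as a description of cells that share pools and depth. For *Crabp1*, over all cells, they included *Sfrp1* (0.66), *Ptn* (0.62), *Prrx1* (0.56) and *Crabp2* (0.56). Over the E10.5 *Pdgfra* cells they included *Ptn* (0.61), *Lix1* (0.57), *Mpped2* (0.55) and *Ppp2r2b* (0.51). *Ptn* thus stayed on the list inside 1 lineage, with a lowest value in any pool of 0.39. For *Crabp2*, *Mdk* (0.62) and *Prrx1* (0.58) led over all cells, and *Prrx1* (0.58) led in E10.5 *Pdgfra* cells. The highest r for *Aldh1a2* over all cells was 0.38 with *Plat*, for *Rara* 0.43 with *Id2*, for *Rarb* 0.32 with *Nr2f2* and for *Stra6* 0.34 with *Car14*. In at least 1 pool the r with *Plat*, *Nr2f2* and *Car14* was below 0, so no likeness of *Aldh1a2*, *Rarb* or *Stra6* is drawn from it.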

How the data were processed

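Per the labels and the methods of the study, Smart-seq2 libraries made with Nextera XT were read from a single end, aligned by the authors to GRCm38.p6 with STAR (2.6.0c) and counted per gene with Subread (1.6.2). The deposited values are whole-number counts per gene, not normalised, and the 4 groups follow the labels for embryonic day and sorting. No molecular identifiers were used, so reads are not independent molecules. The table of normalised values that the authors also deposited was not used. The 653 cells are 203 E10.5 bulk, 211 E10.5 Lgr5-GFP+, 159 E13.5 bulk and 80 E13.5 Lgr5-GFP+ cells. The classes of *Afp*, *Klf1*, *Pdgfra* and *Wt1* hold 61, 160, 113 and 24 cells, and 108 of the *Pdgfra* cells are from E10.5. All cells and all genes entered the totals, and 0 columns of values were left unused. Depth was 463347 to 2279700 reads per cell. Per the methods of the study, the sort was gated on singlets by pulse width, and no doublet caller was run here. The 10 cells with another marker combination than *Pdgfra* with *Wt1* were left out of the classes. No cells had identical counts, and 230 of 365 index pairs occur in several pools.

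Levels were computed in Python (3.11.15, numpy 2.4.6, pandas 2.3.3, scipy 1.17.1), and exon lengths and positions came from GENCODE vM21 on GRCm38. Shares have exact Clopper-Pearson intervals, summed reads exact Poisson intervals, and a count of 0 a limit of 3 counts. Genes at 5 RPM or more in a compared class count as measured, and a 2-fold difference is counted without a test. Pool values need 5 cells. The counting of 2-fold differences was checked on simulated data. Alternatives were edgeR (4.0.16) TMM and DESeq2 (1.42.0) size factors on summed counts, per-cell means, other read thresholds, overlapping classes, thinning to 100000 reads, and leaving out pools or top cells. Named genes were the 9 members, the 4 markers, the list of pathway genes, and for each member with more than 10 reads in at least 30 cells the 5 genes most like it. Other marker genes named come from the lists of cell type markers, and examples were chosen with their values in view. The members and all lists were chosen with earlier results of these data known. A few genes that the rule for named genes picks are not reported here.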

Additional observations from a re-analysis of the deposited data

How the results depend on the processing

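The share of *Pdgfra* cells with *Crabp1* (61.95%) was 81.42% when 1 read made a cell positive and 44.44% without pools 3, 4 and 5 together, and 56.98% to 69.57% without each pool in turn. The log2 ratio of *Crabp1* between *Pdgfra* cells and the next class (1.64) was 1.61 with TMM factors, 1.501 with DESeq2 size factors, 1.75 with per-cell means, 1.87 with more than 50 marker reads, 0.72 with overlapping classes, 1.74 after thinning, 0.76 without pools 3 to 5, 1.57 without the top cell and 1.39 to 2.33 without each pool. It was -1.03 with more than 0 marker reads, where 23 *Wt1* cells are left and 1 cell holds 50.5% of their *Crabp1* reads. The share of cells with *Wt1* that had *Aldh1a2* (26.98%) was 11.17% with more than 0 marker reads, 0% without pools 3 to 5 and 20% to 31.48% without each pool. The count of members 2-fold apart between stages (4) was 7 with no minimum level and 3 to 5 without each pool, and a mean over pools could not be computed because too few pools hold 5 E13.5 cells. The count between sorts (3) was 1 without pool 5, 4 with no minimum level and 2 or 3 under the other alternatives. Among the classes with a marker, the count of members highest in cells with *Pdgfra* (8) was 5 with more than 0 marker reads. It was 6 without pools 3 to 5 and 7 to 8 without each pool. *Stra6* in Lgr5-GFP+ against bulk cells (-1.08) was 1.92 without pools 3 to 5 and -2.74 to -0.47 without each pool. The causes were not tested, beyond the fewer cells and samples of each alternative. No paired analysis was possible because the replicate numbers only name cells and no result comes from a test. Groups of 1 sample and small classes limit what can be compared, and rare genes rest on single cells.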

Other observations

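Cells with markers of other lineages, most of them without a lineage marker of the 4 used above, differed in these genes. Of 33 cells with more than 10 reads of *Pax3*, a transcription factor of muscle progenitors and neural crest, 26 passed 10 reads of *Crabp2* (78.8%, 61.1 to 91.02%) and 7 passed for *Crabp1* (21.2%, 8.98 to 38.9%). Of 27 cells with *Lbx1*, a factor of migrating limb muscle progenitors, 20 passed for *Crabp2* and 4 for *Crabp1*. Among the 29 E10.5 cells with either marker, *Crabp2* was found without *Crabp1* in 20 cells, both in 6 and *Crabp1* alone in 1. In the 160 E10.5 cells with *Pdgfra* or *Wt1*, *Crabp2* without *Crabp1* was found in 31.

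Cells with *Cdh5*, an endothelial cadherin, and cells with *Ptprc*, which encodes CD45, were present although the sort left out CD31 and CD45. None of the 28 *Cdh5* cells passed 10 reads of *Crabp1*, which allows a share of up to 10.7%, and none of the 15 *Ptprc* cells did, which allows up to 20%. *Rara* passed in 12 of the 28 *Cdh5* cells (42.9%, 24.5 to 62.8%) and in 7 of the 15 *Ptprc* cells (46.7%, 21.3 to 73.4%). These shares were near the 46.02% of *Pdgfra* cells, without matching of pools. Of the cells with *Gata1*, an erythroid factor, 10 passed for *Rara* (6.54%, 3.18 to 11.7%).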
